A study of Mus musculus with 12 samples.

Results

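The regions described here are m6A peaks of mouse macrophages that lie in genes whose symbol does not occur in a list of YTHDF2-bound RNA from the same kind of cell. They were selected on measured values, by comparing the gene symbols of 2 deposited peak lists, so their absence from the YTHDF2 list is how they were chosen and not a result. The rule took 3097 of 10290 m6A peaks, in 1804 of 5447 genes that carry such a peak. The cells were M1-type macrophages grown from bone marrow of C57BL/6 mice, either Ythdf2 conditional knockout (cKO) or wild-type (WT). Bone marrow was kept for 7 days in M-CSF (20 ng/ml), the factor that drives macrophage growth, before a 24-hour stimulus of LPS at 100 ng/ml together with interferon gamma at 20 ng/ml. The series holds 12 libraries in 6 groups of 2: m6A immunoprecipitates and inputs from cKO and from WT cells, and YTHDF2 immunoprecipitates and inputs from WT cells. Both genotypes received the same culture and stimulation. The Cre driver of the knockout, the age of the mice and whether the 2 libraries of a group came from separate mice or cultures are not given in the sources used here, so p-values measure only the spread between libraries, which may be technical.

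N6-methyladenosine (m6A) is a methyl mark on adenosines of RNA, written by a nuclear methyltransferase complex, mostly in the short consensus DRACH, of which GGACU is a common form. YTHDF2 is a cytoplasmic protein whose YTH domain binds the mark and which recruits the CCR4-NOT deadenylase complex, so that bound mRNAs are shortened and degraded. Marks on mRNA are known to gather near the stop codon and in the 3′ untranslated region. In macrophages stimulated with LPS and interferon gamma, many cytokine and interferon-response mRNAs are short-lived, and m6A readers are among the proteins that act on them.

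All 3 deposited files are summaries, and none holds values per library. The WT m6A list gives each peak's gene, start, end and strand with no level, and the YTHDF2 list gives 17843 distinct peaks with a fold enrichment that is the authors' own value (lowest 1.39, median 3.01, highest 15.5). The third is the authors' comparison of the input libraries between genotypes, with a mean normalized count, a log2 fold change, its standard error and an adjusted p for 10778 tested genes. The depth of each library is unknown. The 10 macrophage markers had mean normalized counts between 416 (Mrc1) and 204979 (Lyz2) in the authors' deposited table, while the T cell gene Cd3e had 0.540. Of the M1 response genes, Nos2 had 31637, Cxcl10 had 10876, Tnf had 5015 and Cxcl9 had 2787, but Il6 had 108 and Il12b had 19.6 and was not tested. Of the fibroblast genes, Col1a1 had a mean normalized count of 559, Col1a2 of 580 and Col3a1 of 169 in that table, but Pdgfra had 7.79. Of the neutrophil genes, S100a8 had 304 and S100a9 had 326, but Ly6g, Mpo and Elane had 0.772, 1.08 and 0.479. A part of other cells in the results was not tested.

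The label "without a YTHDF2 peak" did not hold for all of these genes. Of the 1804 genes, 373 (20.7%, 95% Wilson interval 18.9 to 22.6) had YTHDF2 peaks under another symbol for the same Ensembl gene, and these renamed genes carry 725 of the 3097 m6A peaks. The list names Acod1 as Irg1, Spi1 as Sfpi1, Kmt2a as Mll1, Kmt2b as Wbp7 and Kmt2d as Mll2, for example. For 7 genes the symbol in the YTHDF2 list had turned into a calendar date, as for Marchf2. The renamed genes hold 1139 YTHDF2 peaks with a median fold enrichment of 3.01, the same as that of all peaks in the list. The other 1431 genes, with 2372 m6A peaks, had neither their symbol nor their Ensembl ID in the list and are called unlisted below. Results are given for the unlisted genes and for the renamed genes apart, and m6A genes whose symbol is in the list (3643 genes, 7193 peaks) are called listed. At the border of the rule, 1196 of the listed genes (32.8%) had exactly 1 YTHDF2 peak. The names of all 17843 YTHDF2 peaks begin with m6a_peak, and which libraries they were called from cannot be told from the sources used here.

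The share of genes that the rule took also differed by kind of label. It took 64 of 75 m6A genes labelled as a microRNA, 12 of 13 labelled as another small RNA, all 8 mitochondrial genes and 425 of 555 predicted or unnamed genes (Gm and Rik names and the like), against 1295 of 4796 named genes (27.0%, 95% Wilson interval 25.8 to 28.3). The kinds differed in read count as well. Median mean normalized counts of the genes taken were 1.38 for microRNA labels, 0.399 for other small RNAs and 38.0 for predicted or unnamed genes. They were 675 for named and 7136 for mitochondrial genes, and label and count were not separated here. The YTHDF2 list holds 0 peaks on the mitochondrial chromosome, where 11 of the m6A peaks lie. Among unlisted genes with a RefSeq entry, 916 of 1141 (80.3%) were protein-coding, 93 were long non-coding RNAs and 63 were microRNAs, while 3538 of 3594 listed genes with an entry (98.4%) were protein-coding.

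**Figure D1:**
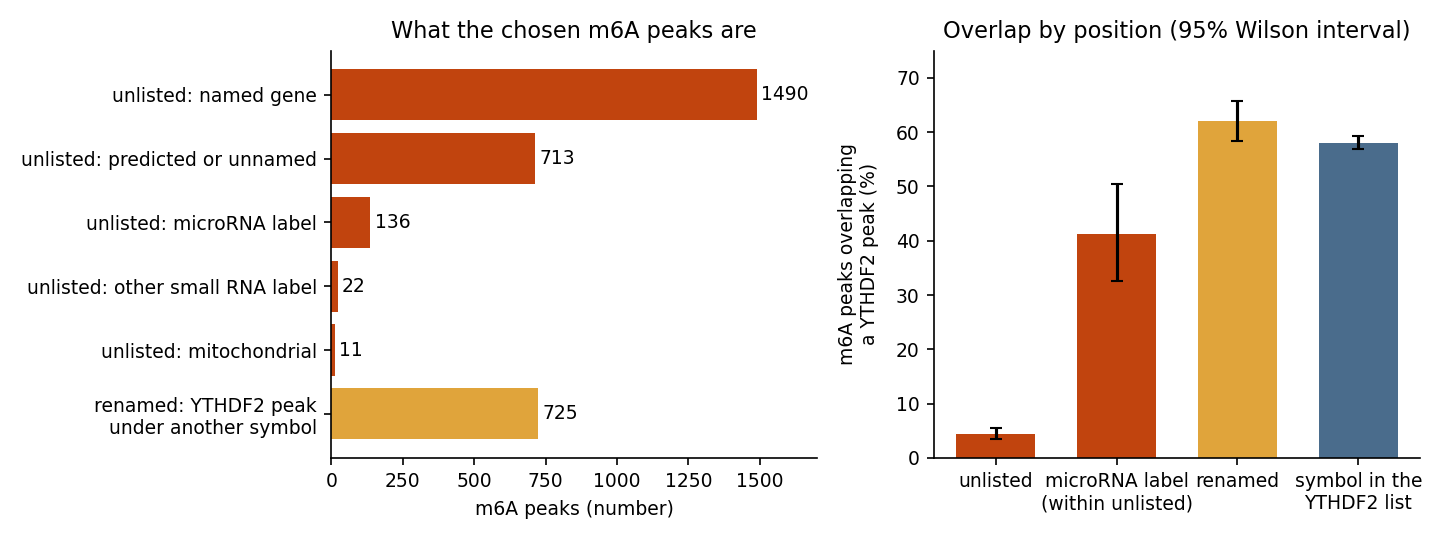
Left, number of m6A peaks chosen by the rule, by kind of gene label (red, unlisted genes; yellow, renamed genes). Right, share of m6A peaks that overlap a YTHDF2 peak by position, with 95% Wilson intervals: 4.36% of placed peaks in unlisted genes, 41.2% of peaks labelled with a microRNA, 62.1% in renamed genes and 58.1% in listed genes. The low share in unlisted genes follows largely from the rule that chose them.

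Most peaks labelled with a microRNA lay away from its hairpin. MicroRNAs are cut from hairpins that often lie in introns of longer host transcripts, and the mature strand pairs with targets through its seed, bases 2 to 8. The mature sequences below are those of labels whose m6A peak overlaps the hairpin (miR-6363, miR-7050, miR-7654 and miR-8115) and, for contrast, of labels whose peaks all lie apart from it (miR-140, miR-5129 and miR-207). Seeds are in capitals, sequences run 5′ to 3′ and come from RefSeq on GRCm38.p6, and the 14 mature sequences looked up for such labels had 14 distinct seeds.
mmu-miR-6363: uGUAGACUggacuguccucaaa
mmu-miR-7050-5p: aCAGGAGAagggggugagaga
mmu-miR-7654-3p: cGAGCGGGagcgcgccucgucc
mmu-miR-8115: cCGCAAUAgcaacaagggcucu
mmu-miR-140-3p: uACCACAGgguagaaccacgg
mmu-miR-5129-5p: aUGUGGGGgcauugguauuuuc
mmu-miR-207: gCUUCUCCuggcucuccucccuc

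Of 136 m6A peaks with a microRNA label, 114 had a hairpin in the RefSeq table, all 114 on the same strand, and 7 overlapped it. The median distance from peak to hairpin was 8363.5 bp, the quartiles were 2401.25 and 23012.5 bp, and the largest distance was 261879 bp. In 105 of the 114 cases the peak lay inside another RefSeq gene on the same strand, and for 102 of these that host gene is itself in the YTHDF2 list. Mir5129 carried 7 m6A peaks between 75 and 87908 bp from its hairpin, all within Zeb2, a zinc finger transcription factor gene. Mir6537 carried 7 peaks within Pou2f2, which encodes an octamer-binding transcription factor, and Mir7670 carried 7 within Ubn2, which encodes a histone chaperone subunit. The nearest peak to the Mir140 hairpin, 5911 bp away, lay in Wwp2, a ubiquitin ligase gene that hosts it, and overlapped a YTHDF2 peak. In all, 47 of the 114 peaks overlapped a YTHDF2 peak (41.2%, 95% Wilson interval 32.6 to 50.4).

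**Figure D2:**
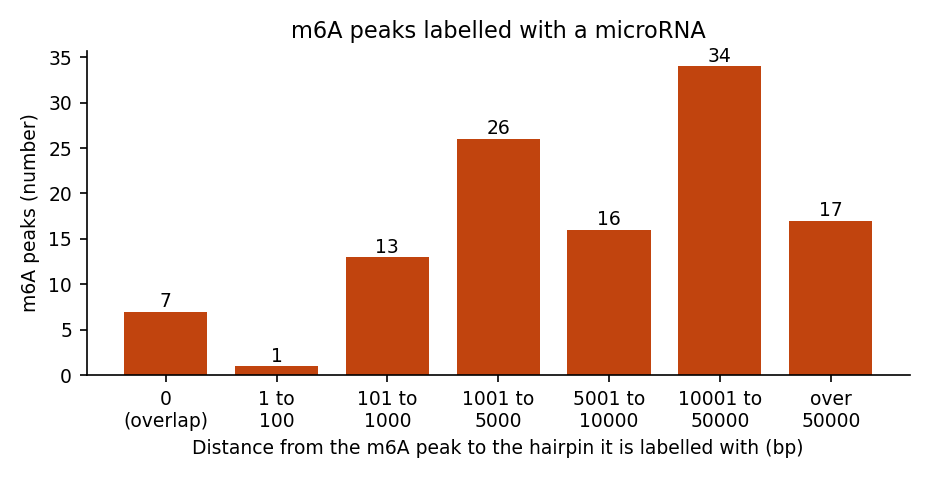
Number of m6A peaks (vertical axis) by distance in bp to the hairpin of the microRNA they are labelled with (horizontal axis, 114 peaks). Of these, 7 overlap the hairpin and 17 lie over 50000 bp away.

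Sequence of the m6A peaks themselves could be read only where a short peak met a RefSeq promoter window. Such a window runs from 250 bases before to 50 after an annotated start of a gene. GGACT, the DNA form of the m6A consensus GGACU, was searched on the gene's strand, which reads like its RNA. It occurred in 5 of 32 such stretches of unlisted genes (9 matches in 2755 bases, 3.27 per 1000), in 2 of 14 of renamed genes (1.64 per 1000 bases) and in 13 of 129 of listed genes (1.22 per 1000). Over all 32851 windows of 300 bases, 26.1% held it on the gene's strand (1.03 per 1000 bases) and 45.5% on either strand. The 5 unlisted genes were Lcn2, Capg, Ywhaq, Psme2b and Phf11b. All 9 of their matches lay before the annotated start of their window, by 8 to 118 bases. For Capg that start lies inside the RefSeq gene, and the peak's midpoint lay 45.5% of the way along the gene. The sites shown, with the motif in capitals, are from unlisted genes and from the listed genes Tnf and Jun, which encode a cytokine and an AP-1 subunit; a match is a description and not a mapped mark.
Lcn2, chr2:32387841-32387869, minus strand: tcatggcttcctGGACTtggtaaaggatg
Ywhaq, chr12:21417518-21417546, minus strand: atcaaagtggtgGGACTcgcgtcgcggct
Phf11b, chr14:59341322-59341342, minus strand: tcaaGGACTgcaagacaacac
Tnf, chr17:35201961-35201989, minus strand: gaggacagcaagGGACTagccaggaggga
Jun, chr4:95052186-95052214, minus strand: caggctggataaGGACTcagagttgcact

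The m6A list gives no chromosome, so a peak was placed by the RefSeq gene of its symbol, within 1000 bp. Of the 2372 peaks of unlisted genes, 1629 could be placed, and 743 could not, 538 of them with predicted or unnamed labels and 110 with microRNA labels. Of the placed peaks, 71 shared 1 bp or more with a peak of the YTHDF2 list (4.36%, 95% Wilson interval 3.47 to 5.46). In renamed genes 425 of 684 did (62.1%, 58.4 to 65.7), close to the 4084 of 7032 in listed genes (58.1%, 56.9 to 59.2). Intervals here cover counting error only, and each list is a single one with no replicate. Unlisted genes were chosen for having no entry in this same list, so their low share beside the other groups largely restates the rule. A YTHDF2 peak lay somewhere in the gene body for 111 of the 1629 peaks (6.81%). This left 1499 m6A peaks in 975 unlisted genes with no YTHDF2 peak in the peak or the gene body. The 110 unplaced peaks with microRNA labels are outside these shares. Placed by hairpin, 47 of 114 peaks with such labels overlapped a YTHDF2 peak (41.2%). Of 105 that lay in a host gene, 102 lay in one of the YTHDF2 list, though their labels count as unlisted here.

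By construction, a YTHDF2 peak that overlaps an unlisted gene stands in the list under another symbol and another Ensembl ID. Whether that is a different gene or an older entry of the same gene was not told apart here. Both m6A peaks of Ccna2, the cyclin A2 gene (chromosome 3, 36564865 to 36573038), overlapped a YTHDF2 peak. Ccna2 had a mean normalized count of only 6.67 and was not among the tested genes. Overlap ignored strand, so whether the YTHDF2 signal comes from Ccna2 RNA cannot be told. Lilr4b and Lilrb4a, adjacent genes of near-identical inhibitory receptors on chromosome 10, each had 1 overlapping peak; the authors' counting and mapping could split reads of such copies, so these 2 are uncertain. The renamed Helz2, a helicase induced by interferon and listed as BC006779, had 10 m6A peaks, of which all 10 overlapped a YTHDF2 peak. Of the histone methyltransferase genes, Kmt2a had 6 of 7 m6A peaks overlapping one of its 13 YTHDF2 peaks, Kmt2b had 4 of 4, Kmt2d had 7 of 8 and Nsd3 (listed as Whsc1l1) had 1 of 4 with 6 YTHDF2 peaks. The unlisted Kmt2e had 8 m6A peaks and 0 that overlapped, which follows largely from the choice of unlisted genes.

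Unlisted genes carried fewer m6A peaks each. More than 1 peak was found in 534 of 1431 unlisted genes (37.3%, 95% Wilson interval 34.8 to 39.9), in 192 of 373 renamed genes (51.5%, 46.4 to 56.5) and in 1851 of 3643 listed genes (50.8%, 49.2 to 52.4). Among genes in the upper 50% of tested genes by mean normalized count the shares were 45.9% for unlisted, 55.9% for renamed and 54.8% for listed genes. The unlisted genes with the most peaks were Gm29019 and Gm49361, predicted genes with 10 each, and among named genes Kmt2e with 8. Gm29019 had a mean normalized count of only 0.541 and was not tested, and Gm49361 had no count in the authors' deposited table. The peaks of both could not be placed, so their overlap with YTHDF2 peaks is unknown and their gene labels are uncertain. Peaks spanned a median of 275 bp in unlisted genes (quartiles 100 and 750), 350 in renamed genes and 350 in listed genes, introns within a peak included. The widest in named unlisted genes reached 9793 bp in Lonp2, a peroxisomal protease gene, and 9741 bp in Smarce1, a subunit gene of the SWI/SNF remodelling complex.

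Unlisted genes had lower read counts. Mean normalized counts are not divided by transcript length, so they describe how many reads a gene gave and not its level. The median was 527 in unlisted genes that were tested, 1228 in renamed genes and 1631 in listed genes, beside 739 over all tested genes. When all tested genes were cut into 10 bins of equal size by count, unlisted genes made up 63 of 86 m6A genes in the lowest bin (73.3%, 95% Wilson interval 63.1 to 81.5) and 55 of 737 in the highest (7.46%, 5.78 to 9.59). The share was lower in each bin than in the one below it by count. The share of renamed genes had no such order, at 4.65% in the lowest bin, 9.38% at most and 5.56% in the highest.

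**Figure D3:**
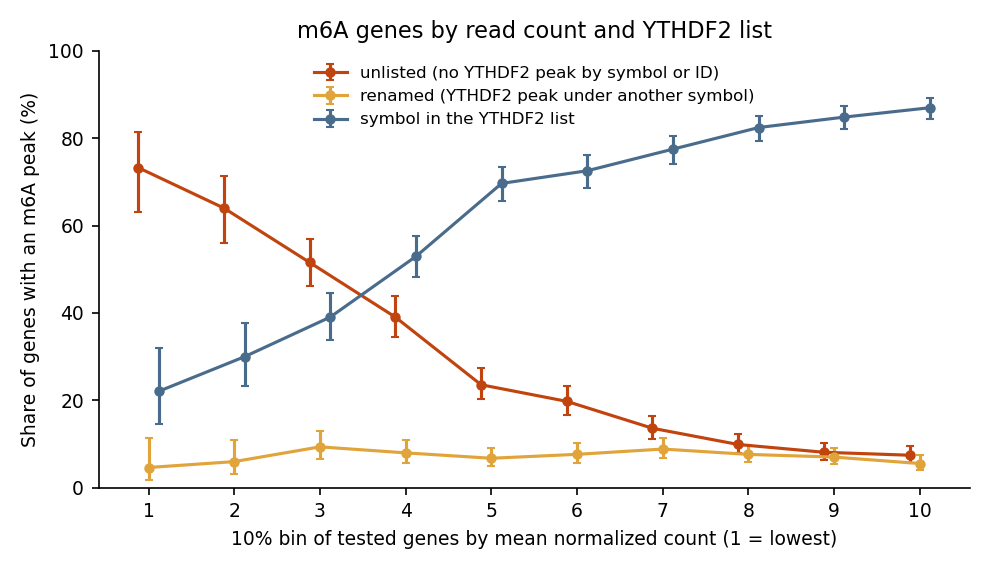
Share of m6A genes (vertical axis, with 95% Wilson intervals) that are unlisted (red), renamed (yellow) or listed (blue), by 10% bin of all tested genes ordered by mean normalized count (horizontal axis). The unlisted share goes down from 73.3% in the lowest bin to 7.46% in the highest, while the renamed share stays between 4.65% and 9.38%.

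Peaks of all groups lay mostly toward the gene end. In protein-coding genes, 497 of 1117 peaks of unlisted genes (44.5%, 95% Wilson interval 41.6 to 47.4) had their midpoint in the last 10% of the RefSeq gene, as did 43% in renamed genes and 46.1% in listed genes (44.8 to 47.5). The first 10% held 6.89%, 7.50% and 6.94% of the peaks of unlisted, renamed and listed genes. Within 1000 bp of the gene end lay 33.6% of the peaks of unlisted genes, 25.2% of those of renamed genes and 23.1% of those of listed genes. Unlisted protein-coding genes were shorter, with a median span of 18560.5 bp against 27657 bp for listed genes. Within classes of gene span the shares near the end were 51.8% in unlisted and 44.1% in listed genes under 10000 bp, 29.8% and 23.8% from 10000 to 50000 bp, and 16.7% and 12% at 50000 bp or more. Positions are on the genome with introns included, and coding and untranslated parts were not separated here.

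**Figure D4:**
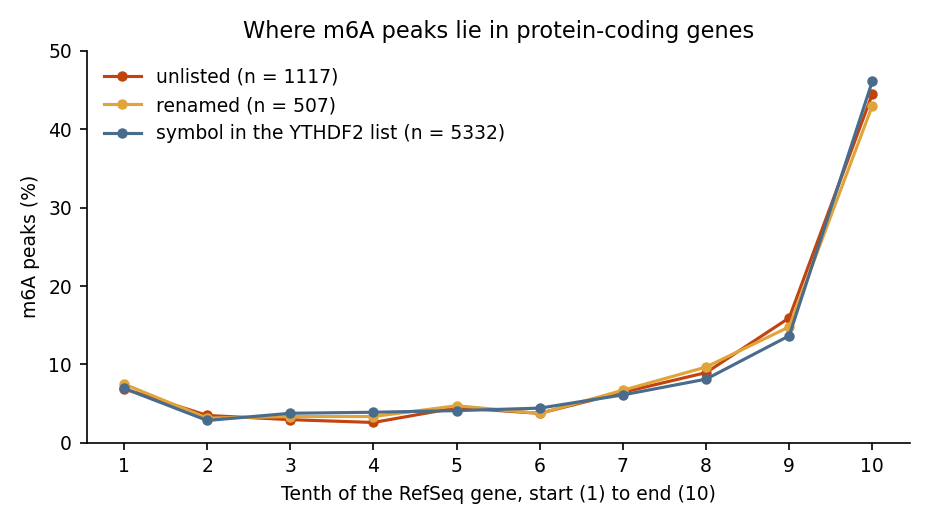
Share of m6A peaks (vertical axis, %) by the part of the RefSeq gene that holds the peak's midpoint (horizontal axis, 10 equal parts from start to end), for peaks of at most 1000 bp in protein-coding genes. The last part holds 44.5% of unlisted, 43% of renamed and 46.1% of listed peaks.

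Single members lay at various places. Ythdf2 itself is unlisted (chromosome 4, 132184916 to 132212256, minus strand), with m6A peaks at 132204871 to 132205120 and 132205171 to 132205520, which are 26.6% and 25.3% of the way along the gene. Slc13a3, a sodium-dependent dicarboxylate transporter gene on chromosome 2, had peaks of 250 and 100 bp with midpoints 57 and 257 bp from its end. The peak of Arg1, the arginase gene on chromosome 10, lay 388 bp from its end and spanned 500 bp, and the 4 peaks of Tlr2, on chromosome 3, had midpoints between 64.7% and 94.2% of the way along it.

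Gene groups differed in how many of their m6A genes were unlisted; the lists were described by counts, beside 1431 of 5447 m6A genes overall (26.3%) and 930 of 4796 named ones (19.4%). Translation and respiration genes were often unlisted. These were 10 of 15 genes of cytosolic ribosomal proteins (Rps24, Rpl7, Rpl26, Rps23, Rpl11, Rpl28, Rpl22, Rpl29, Rpl36a and Rps4l), 14 of 31 of mitochondrial ribosomal proteins such as Mrpl52 and Mrpl40, and 8 of 18 of the respiratory chain and ATP synthase, among them Cox5b with 5 m6A peaks. The genes are short: the unlisted cytosolic ribosomal protein genes had a median span of 2824.5 bp and the listed ones 4914 bp. Counts of the cytosolic ribosomal protein genes were not low, with medians of 3672 in unlisted and 3795 in listed members. The medians were 579 in unlisted and 813 in listed mitochondrial ribosomal protein genes, beside 739 over all tested genes. In genes of the respiratory chain and ATP synthase they were 1428 and 1798. Numbered zinc finger genes, most of which encode DNA-binding repressors with KRAB domains, were unlisted in 65 of 154 cases (42.2%), with median counts of 290 in unlisted and 667 in listed members. Zfp62 and Zfp646 had 5 m6A peaks each. Their 0 overlaps with a YTHDF2 peak follow largely from the choice of unlisted genes.

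Several regulatory groups had few or no unlisted members, though most are small. None was unlisted among 17 m6A genes of the NF-kB pathway, 14 of antigen presentation, 13 immediate early and AP-1 genes and 7 dual-specificity phosphatases, with 95% Wilson intervals that reach 18.4%, 21.5%, 22.8% and 35.4%, so that those of all but the NF-kB pathway include the 19.4% of named genes. The listed genes of these groups had median counts of 2377, 12885, 5764 and 1474, above the 739 of all tested genes. In the 2 count bins that meet at the NF-kB median, 9.92% and 8.14% of m6A genes were unlisted, and the NF-kB interval includes these shares. Of 86 solute carriers 8 were unlisted (9.30%), and of 22 genes of the type I interferon response only Isg20, an exonuclease gene, and Ifih1, which encodes the RNA sensor MDA5, were. Of 20 pattern recognition receptor genes 5 were unlisted: Tlr1, Tlr2 and Tlr6, whose products pair to sense bacterial lipopeptides, the adaptor gene Tirap, and Clec7a, the beta-glucan receptor gene. Tlr1, Tlr2 and Tlr6 carried 3, 4 and 3 m6A peaks. Of 11 cytokine and chemokine genes, Il1b and Cxcl9 were unlisted. In the m6A machinery 2 of 12 were, Ythdf2 and Cbll1, the gene of the writer subunit HAKAI, and Virma, a writer subunit listed as 1110037F02Rik, was renamed. In mRNA decay, Cnot2 and Cnot4 of the CCR4-NOT group were unlisted among 19.

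Some list counts depended on names rather than on peaks. Of 26 chromatin methyltransferase and demethylase genes 7 fell under the rule, and 6 of them were renamed. Spi1, the gene of the macrophage master factor PU.1, had 2 m6A peaks and 2 YTHDF2 peaks under its older name, and Batf2, Cebpd and Tfec were the 3 unlisted genes of 20 macrophage lineage factors. Histone genes showed 3 renamed and 1 unlisted member of 7. Acod1, whose enzyme makes itaconate in stimulated macrophages, was the renamed gene with the highest count, at 88980, and its YTHDF2 peaks under Irg1 reached a fold enrichment of 1.81.

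A few unlisted genes had high counts. Lars2, the mitochondrial leucyl-tRNA synthetase gene, had a mean normalized count of 247912 with 1 m6A peak of 50 bp. It was followed by Ms4a6d at 39928, Lilr4b at 38407, the mitochondrial 12S ribosomal RNA gene mt-Rnr1 at 36811, the macrophage lysosomal glycoprotein gene Cd68 at 33157, the actin-capping protein gene Capg at 32125, the polyubiquitin gene Ubb at 27589 and Ms4a7 at 22969. Ms4a6d, Ms4a7 and Lilr4b belong to clusters of close copies, so the authors' counting could split their reads. The count of Lars2 is above the 204979 of Lyz2, the highest of the macrophage markers. Where in Lars2 these reads lie cannot be told from the summaries, so its count is uncertain as a measure of its mRNA. Of 11 m6A genes with names in Ifi, 6 were unlisted and 2 renamed, and Ifi206 and Ifi211, DNA-sensor family genes of a cluster on chromosome 1, had 5 and 6 m6A peaks; this name stem was chosen after its values were seen.

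The genotype comparison asked which genes differ in input RNA when YTHDF2 is lost. In the authors' deposited table it is not said which genotype stands on top of the fold change. Ythdf2, the targeted gene, had a log2 fold change of 1.10 ± 0.16 (standard error) and an adjusted p of 2.06e-09 in that table, so a positive value is called the side of Ythdf2. If Ythdf2 RNA is lower in cKO cells, genes on its side are lower there too. Values of single libraries were not in the files used here, so overlap of the groups cannot be stated.

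Of the 1359 member genes that were tested, 38 were called at an adjusted p under 0.05 (2.80%), beside 250 of all 10778 tested genes (2.32%) and 111 of 3529 listed genes (3.15%). On the side of Ythdf2 there were 27 members (1.99%, with 1.76% over all tested genes), and 11 on the opposite side (0.809%, with 0.557% over all). With no adjustment, 145 members had a p under 0.05 (10.7%), beside 9.99% of all tested genes. These shares are near the background, so the counts are no result about the members as a set. Without the renamed genes, 30 of 1000 unlisted genes were called, 22 on the side of Ythdf2 and 8 opposite, and 8 of 359 renamed genes were called. In the authors' deposited table the median log2 fold change was 0.01 in unlisted genes, 0.02 in renamed genes, 0.04 in listed genes and -0.01 over all tested genes. A value above 0 was found in 51.9% of unlisted genes, 55.7% of renamed genes, 59.3% of listed genes and 48.7% of all tested genes.

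**Figure D5:**
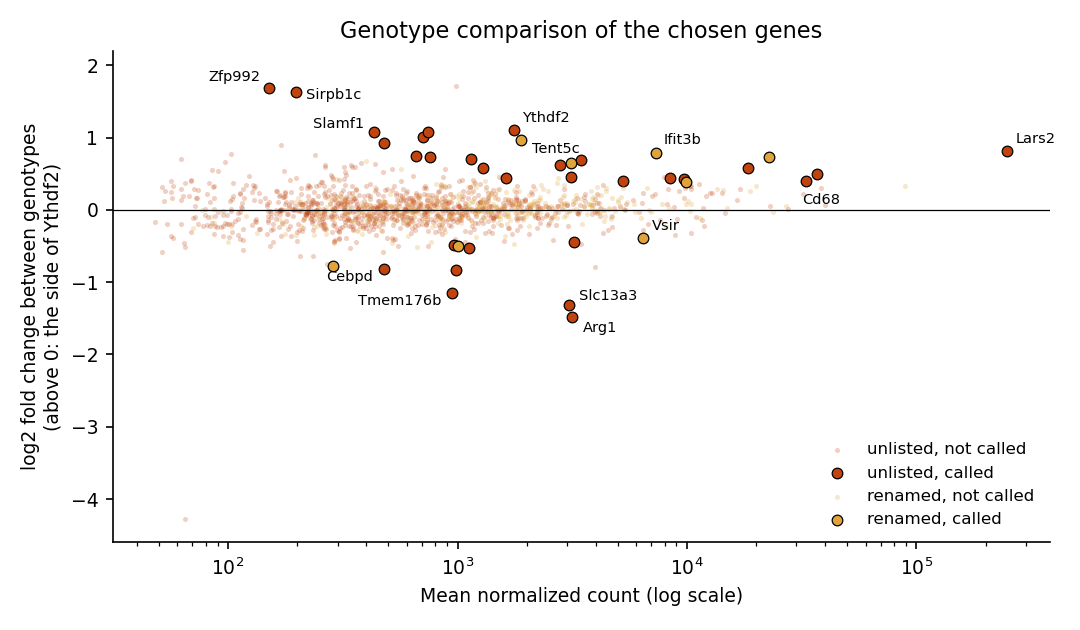
log2 fold change between genotypes (vertical axis, positive on the side of Ythdf2) against mean normalized count (horizontal axis, log scale) for the 1359 tested member genes of the authors' deposited table, red for unlisted and yellow for renamed genes. Larger outlined points are the 38 called genes, 27 above 0 and 11 below, and the lowest point, at -4.27, was not called.

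The largest values among called unlisted genes on the side of Ythdf2 belonged to genes of different kinds. In the authors' deposited table Zfp992, a zinc finger gene, had the largest value at 1.69 ± 0.30 (adjusted p = 1.14e-05), with a mean normalized count of only 151. Sirpb1c, a signal-regulatory protein gene with close copies, followed in the authors' deposited table at 1.62 ± 0.35 (adjusted p = 5.03e-04). Tpx2, which encodes a spindle assembly factor, had 1.07 ± 0.21 in the authors' deposited table (adjusted p = 7.54e-05). Slamf1, a microbial sensor and lymphocyte receptor gene, was at 1.07 ± 0.21 in the same authors' deposited table, with 2 m6A peaks near its end. A530040E14Rik, a long non-coding RNA gene, had 1.01 ± 0.21 in the authors' deposited table (adjusted p = 2.62e-04). Lars2 was at 0.81 ± 0.11, Htr2b, a serotonin receptor gene, at 0.74 ± 0.17 and the unnamed 4933430I17Rik at 0.73 ± 0.21 in the authors' deposited table.

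Some other called genes on that side were GTPase, chemokine, exonuclease and Ifit genes. In the authors' deposited table the GTPase genes Tgtp1, Gbp2 and Gbp6 had log2 fold changes of 0.92, 0.58 and 0.57, and the chemokine gene Cxcl9 had 0.62 ± 0.15 (adjusted p = 0.00297). Isg20 was at 0.44 and Ifi205 at 0.42 in the authors' deposited table. Related members were not called in the authors' deposited table: Ifi206 had 0.36 (adjusted p = 0.0635), Ifi209 0.32, Ifi211 0.29 and Ifih1 0.23. Among the renamed genes, Ifit3b (listed as I830012O16Rik) was at 0.79 ± 0.14 and Ifit1bl1 (listed as Gm14446) at 0.73 ± 0.12 in the authors' deposited table, and every m6A peak of both, 3 and 1, overlapped a YTHDF2 peak. The type I interferon list as a whole, most of it listed genes, had 10 called of 30 tested (33.3%) in the authors' deposited table. Its median there was 0.26, and 2.32% of all tested genes were called. Its 3 tested members here had 2 calls, Ifit3b and Isg20, both on that side, too few to be read against that share. With adjustment over every gene with a p, Isg20 had an adjusted p of 0.0995 and was not called. Isg20 was also not called after centring on the most abundant tested genes (adjusted p = 0.0878), while Ifit3b stayed called under both. Gbp2, Gbp6 and Ifi205 were named after their values were seen, and Gbp, Ifi and Ifit genes have close copies that counting could split. Most of the 4 m6A peaks of Tgtp1 lay outside its RefSeq gene and could not be placed, so its place among the members is uncertain.

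The opposite side was led by Arg1, Slc13a3 and Tmem176b. Arg1, whose enzyme breaks down arginine and competes with nitric oxide synthase, had a log2 fold change of -1.48 ± 0.37 (adjusted p = 0.00627) in the authors' deposited table. Slc13a3 was at -1.31 ± 0.13, with the smallest adjusted p of the 38 members (7.40e-21), in the authors' deposited table. Tmem176b, a membrane protein gene of myeloid cells, had -1.15 ± 0.15 in the authors' deposited table (adjusted p = 2.64e-11). Mmp8, the neutrophil collagenase gene, was at -0.83 ± 0.19 and Cebpd, a C/EBP transcription factor gene, at -0.81 ± 0.19 in the authors' deposited table. The neutrophil gene S100a8, also unlisted, was not called there (-0.39 ± 0.26, adjusted p = 0.746 in the authors' deposited table), and Ly6g, Mpo and Elane had counts of 0.772, 1.08 and 0.479; a part of other cells in these values was not tested. Of the renamed genes, Nxpe5 (-0.78), Otulinl (-0.50) and the checkpoint receptor gene Vsir, known as VISTA (-0.39), were called on this side in the authors' deposited table, and each of their m6A peaks overlapped a YTHDF2 peak.

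In the genotype comparison, the groups with many unlisted members were too small for a count of calls to be read against the 2.32% called over all tested genes. None of 10 tested cytosolic ribosomal protein members, 14 mitochondrial ribosomal protein members and 8 respiratory chain members was called in the authors' deposited table, where their medians were -0.23, -0.13 and -0.10. With no adjustment, 5, 0 and 0 genes of these groups had a p under 0.05 in the authors' deposited table, beside 9.99% of all tested genes. Over all 77 tested genes of cytosolic ribosomal proteins, with or without an m6A peak, 4 were called (5.19%) and the median was -0.26 in the authors' deposited table. Of 69 tested zinc finger members 1 was called, Zfp992, in the authors' deposited table. The unlisted receptor genes Tlr1 (-0.09 ± 0.12), Tlr2 (-0.19 ± 0.61) and Tlr6 (0.12 ± 0.16) were not called there, nor was Il1b (0.03 ± 1.17), and the standard errors of Tlr2 and Il1b in the authors' deposited table are far above the median of 0.17 over all tested genes. In the authors' deposited table Cd68 was called at 0.40 ± 0.11 (adjusted p = 0.0221), and mt-Rnr1 at 0.50 ± 0.13 (adjusted p = 0.0114).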

How the data were processed

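The data are 3 files combined by the authors from 12 libraries (2 per group), and 0 columns of values per library were used. The WT m6A list (exomePeak2, per the labels) gives gene, start, end, strand and symbol. In the YTHDF2 list the authors deposited a ratio (fold enrichment) and a −log10 q per peak, per the file's narrow-peak layout; its score is also as deposited, with no caller named. In the genotype table the mean normalized count is a signal that the authors deposited, and the log2 fold change, its standard error, the test statistic (a score), the p-value and the adjusted p-value are the authors' as well; per the file headers the columns are those of DESeq2. Depth per library is unknown. Per the submitters' processing notes, HISAT2, HOMER, ChIPseeker and mm10 were used, in roles that those notes as seen here leave unsaid.

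Here, symbols in the m6A list were matched to those in the YTHDF2 list, and then Ensembl IDs. The 45541 rows of the YTHDF2 list hold 17843 distinct peaks, 7598 symbols and 7623 Ensembl genes; 20 listed symbols had no Ensembl match. Gene positions, microRNA and promoter sequences are from RefSeq on GRCm38.p6, which has the coordinates of mm10. Of 5447 m6A genes, 5098 had a RefSeq entry and 5160 were in the genotype table (of 1804 members, 1504 and 1560). Peak starts were taken as 0-based, since 115 equalled a RefSeq start minus 1 and 11 the start itself, and are written 1-based. Overlap ignored strand and needed 1 bp. Positions within genes used peaks of at most 1000 bp in protein-coding genes, and sequence stretches came from peaks of at most 500 bp. Shares carry 95% Wilson intervals; with single peak lists there are no replicates and no tests. The design foresaw counts per library; with summary tables only, a call is the authors' adjusted p under 0.05. Overlap, interval and adjustment code was tested on simulated data. Python 3.11.15 with pandas 2.3.3, numpy 2.4.6, scipy 1.17.1 and matplotlib 3.10.9 was used.

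The members and the 29 gene lists were chosen with earlier results of these data known. Genes are named when among the 12 with most m6A peaks, the 12 largest called changes in each direction, the 12 highest counts, a list's called or 4 highest members, Ythdf2, the 8 highest-count members overlapped by a YTHDF2 peak or renamed, or the 6 widest and 6 longest summed spans; others are examples of naming, microRNA labels and sequence sites or are said to be chosen after their values were seen. Peaks of cKO cells were not analysed here.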

Additional observations from a re-analysis of the deposited data

How the results depend on the processing

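Each result was recomputed under other choices of matching, threshold and filter, 33 alternatives in all. Of these, 23 stayed within 1.5 times the value for a count, or within its 95% interval for a share or median, so that counts had the wider limit: peaks went as low as 2204 and calls as low as 27 within it. The other 10 are as follows. With only YTHDF2 peaks of a fold enrichment of at least 3, the rule took 5844 m6A peaks in 3275 genes, and 95 of 2779 tested genes were called in the authors' deposited table, against 38 of 1359, because fewer YTHDF2 peaks remove fewer genes. The share of member peaks that overlap a YTHDF2 peak was 21.4% for the rule as given, 13.9% when 50% of the m6A peak had to be covered, and 4.36% when genes were also matched by Ensembl ID, an alternative added after seeing the data. That match also gave 37.3% in place of 40.2% of genes with more than 1 m6A peak and a median count of 527 in place of 653. Restriction to the upper 50% of tested genes by count gave 49.8% of genes with more than 1 peak and a median log2 fold change of 0.032, against 0.01, in the authors' deposited table; the cause was not tested. A change of at least 1.5-fold left 23 of the 38 called members in the authors' deposited table. Adjustment over every gene with a p left 27 (22 on the side of Ythdf2, 5 opposite), without Atp8b4, Bin2, Cd68, Chmp1b, Fgd2, Isg20, Nxpe5, Otulinl, Rab7b, Vsir and 4933430I17Rik. Centring on the most abundant 25% of tested genes, a shift of 0.04, left 32 (21 and 11), without Cd68, Chmp1b, Isg20, Naip2, Rab7b and 4933430I17Rik. No paired analysis was possible because the files hold no values per library, and leaving out a replicate could not be run for the same reason. Unknown depth limits the reading of absence from the YTHDF2 list in genes of low count.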
